A study of Trichoderma reesei with 8 samples.

Results

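The transcriptome of *Trichoderma reesei* without the transcription factor gene *ypr2* was compared with that of the wildtype in constant darkness, over all genes of the deposited table. *T. reesei* is a filamentous ascomycete that secretes large amounts of cellulases. The comparison used 4 of the 8 libraries of the series: ∆*ypr2*, a recombinant strain lacking *ypr2* (TR_102497), with n = 2 cultures from darkness, and the wildtype QM6a with n = 2 cultures from darkness. Both strains had been precultured in darkness for 14 days, then grown for 72 h at 28 °C and 200 rpm in minimal medium with 1% microcrystalline cellulose and 0.1% peptone, and the mycelium was harvested under red safety light. The remaining 4 libraries (∆*ypr2* and wildtype in constant light of 1600 lx, n = 2 each) entered the same statistical fit. In the paper, ∆*ypr2* formed much less biomass than the wildtype in darkness, while both strains did not differ significantly in light. Whether lower growth accounts for changes in darkness, or for their difference from light, was not tested. How many transformants the ∆*ypr2* cultures represent was not given in the sources used here.

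YPR2 belongs to the zinc cluster (Zn2Cys6) transcription factors, a family of DNA binding regulators found in fungi that often control metabolic gene sets. Its gene lies in the SOR cluster, the group of neighbouring genes that makes the yellow sorbicillinoid pigments. Fungi adapt carbon use, secondary metabolism and spore formation to light.

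The libraries from darkness held 18.9 and 22.9 Mio counts in ∆*ypr2*, against 19.2 and 18.4 Mio in the wildtype. Levels are given as CPM (counts per Mio after scaling for library composition), and CPM are not divided by transcript length. Of 9143 genes 8469 were tested with the quasi-likelihood test of edgeR, and a gene was called at an adjusted p under 0.01 together with a change of at least 2-fold. Log2 fold changes are ∆*ypr2* over wildtype with their standard error, so that a positive value means a higher level in ∆*ypr2*.

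The deletion was visible in the libraries themselves. *ypr2* had 0.543 and 0.263 CPM in ∆*ypr2*, against 165 and 153 CPM in the wildtype (log2 fold change -8.65 ± 0.31, adjusted p = 1e-08), which were 10 and 6 counts in ∆*ypr2*, against 3040 and 2636 counts in the wildtype.

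In darkness 820 genes were upregulated in ∆*ypr2*, which is 9.68% of all genes tested, and 512 genes were downregulated, which is 6.05%. The cultures of both strains did not overlap for any of these 1332 genes, but this holds for many genes without a call as well: 42.2% of all genes tested were higher in both ∆*ypr2* cultures than in both wildtype cultures, and 40.0% were lower. A further 3106 genes had an adjusted p under 0.01 with a change of less than 2-fold, 1462 of them higher and 1644 lower in ∆*ypr2*. Most changes were moderate, with a median log2 fold change of 1.67 among the upregulated genes and of -1.52 among the downregulated genes. Large changes were more often upward: 141 genes were at least 8-fold higher and 62 at least 8-fold lower, and 19 were at least 32-fold higher and 13 at least 32-fold lower. The middle of all genes tested lay close to 0, with a median log2 fold change of 0.01 and quartiles of -0.31 and 0.41. Scaling for library composition places most genes near 0, so this median is not a result by itself. Without a scaling factor it was 0.07.

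**Figure D1:**
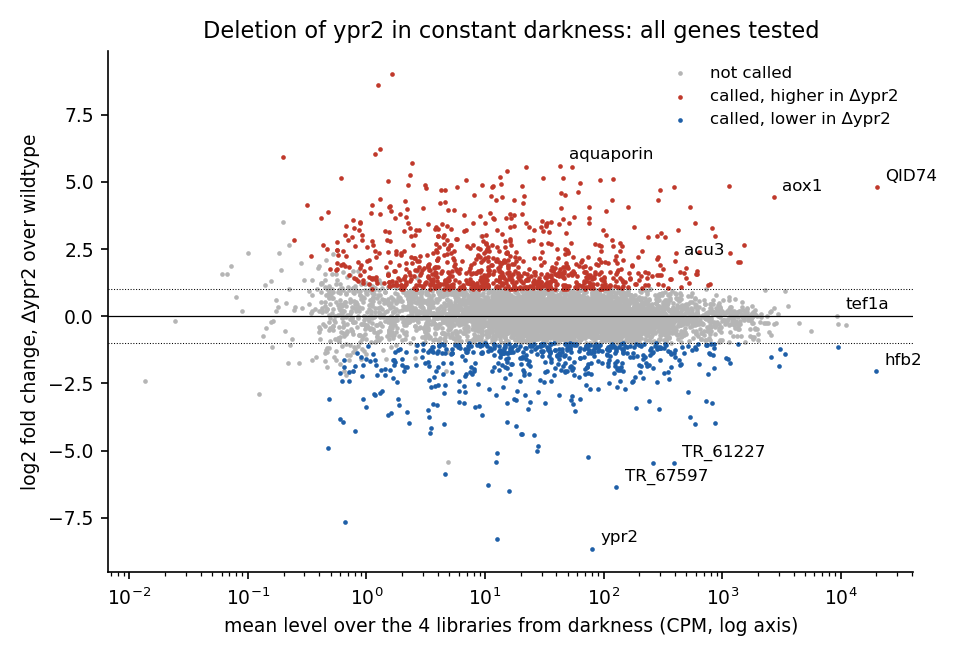
Each point is 1 of the genes tested, with its mean level over the 4 libraries from darkness in CPM on a log axis and its log2 fold change, ∆*ypr2* over wildtype. Red points are the 820 genes called higher in ∆*ypr2*, blue points the 512 called lower, grey points were not called, and dotted lines mark the 2-fold limit.

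The composition of the libraries differed by strain. Genes upregulated in ∆*ypr2* took 10.9 and 12.3% of all counts of the ∆*ypr2* libraries, against 1.92 and 2.10% of the wildtype libraries. Genes downregulated in ∆*ypr2* took 4.63 and 4.43% of the counts in ∆*ypr2*, against 13.5 and 13.5% in the wildtype. The direction of these shares follows from how the genes were chosen, while their size describes how much of the transcript pool was exchanged. A single gene each made up a good part: the homologue of QID74 (TR_74282), a cell wall protein gene, took 3.37 and 4.26% of the counts in ∆*ypr2*, against 0.12 and 0.14% in the wildtype. *hfb2*, which encodes a hydrophobin, a small amphiphilic protein of fungal surfaces, took 0.734 and 0.792% in ∆*ypr2*, against 2.95 and 3.12% in the wildtype. Without the QID74 homologue the upregulated genes still held 7.55 and 8.07% in ∆*ypr2*, against 1.80 and 1.96% in the wildtype, and without *hfb2* the downregulated genes held 3.89 and 3.64%, against 10.6 and 10.4%.

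**Figure D2:**
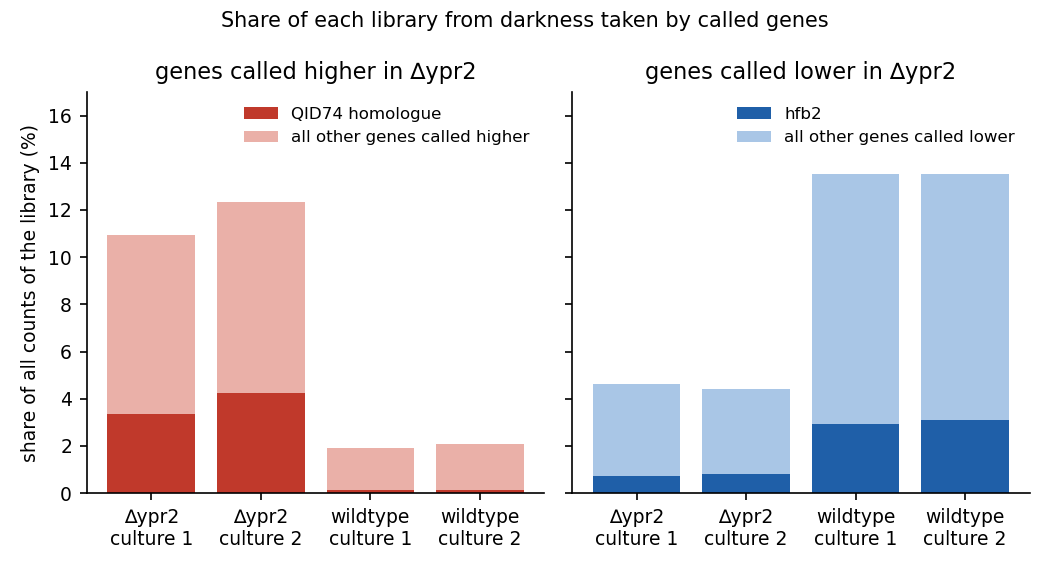
Bars give the share of all counts of a library, in percent, taken by the genes called higher (left panel) or lower (right panel) in ∆*ypr2*, for the 2 cultures of ∆*ypr2* and then the 2 of the wildtype. The dark part of a bar is the QID74 homologue (left, 3.37 and 4.26% in ∆*ypr2*) or *hfb2* (right, 2.95 and 3.12% in the wildtype).

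The 10 genes that gained most CPM were led by the QID74 homologue with 34548 and 42775 CPM in ∆*ypr2*, against 1254 and 1484 CPM in the wildtype (4.82 ± 0.21). The alcohol oxidase gene *aox1* (TR_80659), for an enzyme that oxidizes short alcohols, had 4695 and 5757 CPM in ∆*ypr2*, against 230 and 257 CPM in the wildtype (4.42 ± 0.13). TR_105533, annotated as a small secreted cysteine rich protein, had 1928 and 2509 CPM in ∆*ypr2*, against 61.2 and 93.7 CPM in the wildtype (4.84 ± 0.23). All 3 were thus present in the wildtype already, and both mutant cultures were far above both wildtype cultures. A gene for a threonine rich mannoprotein of the cell wall (TR_123475) followed with 2513 and 2782 CPM in ∆*ypr2*, against 344 and 489 CPM in the wildtype (2.67 ± 0.16). TR_44956, a permease gene of the major facilitator superfamily (MFS), had 1478 and 1497 CPM in ∆*ypr2*, against 152 and 156 CPM in the wildtype (3.28 ± 0.07). TR_80142, a homologue of HSP104, a chaperone that dissolves protein aggregates, had 2211 and 2313 CPM in ∆*ypr2*, against 506 and 613 CPM in the wildtype (2.01 ± 0.12). In each of these genes both mutant cultures lay well above both wildtype cultures.
The pyruvate decarboxylase gene *pdc1* (TR_121534), for the enzyme that forms acetaldehyde from pyruvate, differed more between cultures, with 2653 and 1266 CPM in ∆*ypr2*, against 288 and 472 CPM in the wildtype (2.37 ± 0.35, and 1.74 without ∆*ypr2* culture 1). The other 3 genes of this set were the Hsp30 homologue TR_62100 (3.48 ± 0.27) and the genes TR_44967 (2.99 ± 0.33) and TR_46002 (2.01 ± 0.06), for which no function is known. The largest adjusted p among the 10 genes was 0.00036.

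The 10 genes that lost most CPM were led by *hfb2*, with 7530 and 7956 CPM in ∆*ypr2*, against 30817 and 33120 CPM in the wildtype (-2.05 ± 0.08). *hfb3*, the gene of another hydrophobin, had 1297 and 1332 CPM in ∆*ypr2*, against 4551 and 4958 CPM in the wildtype (-1.85 ± 0.07). *hex1*, for the main protein of Woronin bodies, which plug the septal pores of damaged hyphae, had 6108 and 5813 CPM in ∆*ypr2*, against 12684 and 13438 CPM in the wildtype (-1.13 ± 0.07). For these genes the cultures of a strain lay close together, and both strains were clearly apart. TR_120821 encodes a phytase, an enzyme that frees phosphate from phytate, and had 2315 and 1360 CPM in ∆*ypr2*, against 4164 and 4479 CPM in the wildtype (-1.23 ± 0.21). Without ∆*ypr2* culture 2 its value was -0.90, under the 2-fold limit. Deeper falls at a lower level were seen for TR_67562, with 102 and 107 CPM in ∆*ypr2*, against 1647 and 1656 CPM in the wildtype (-3.98 ± 0.06). TR_68924 (-3.25 ± 0.08), TR_123955 (-3.14 ± 0.12) and TR_68812 (-1.73 ± 0.07) belong to the same set. None of these 4 genes has a name or function in the sources used here, and neither TR_121350 (-1.51 ± 0.13) nor TR_55272 (-1.39 ± 0.10) has a known function.

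Among genes averaging 5 CPM or more, the 15 largest rises lay between 4.85 and 5.60 on the log2 scale, and none of the 15 exceeded 7.18 CPM in a wildtype culture. They comprised transport, oxidoreductases, a regulator and genes of unknown function. The aquaporin gene TR_82321, for a membrane channel of water and small solutes, had 73.6 and 95.8 CPM in ∆*ypr2*, against 1.52 and 1.97 CPM in the wildtype (5.60 ± 0.23). TR_60810, annotated as a GPR1/FUN34/yaaH protein with membrane spans, had 151 and 215 CPM in ∆*ypr2*, against 4.62 and 6.37 CPM in the wildtype (5.06 ± 0.24). Among enzymes, TR_3447, an alcohol dehydrogenase of class V, had 25.5 and 33.8 CPM in ∆*ypr2*, against 0.652 and 0.753 CPM in the wildtype (5.39 ± 0.35). Of these 3 genes the alcohol dehydrogenase gene was lowest in the wildtype, and in each both mutant cultures were far above both wildtype cultures. A zinc-binding oxidoreductase gene (TR_59322) had 22.8 and 29.0 CPM in ∆*ypr2*, against 0.652 and 0.753 CPM in the wildtype (5.2 ± 0.33). Both a catalase gene (*cat-3*, TR_58472, 5.16 ± 0.21), for an enzyme that degrades hydrogen peroxide, and the sulfite oxidase gene TR_76601 (5.10 ± 0.20) were in the set.
The zinc cluster regulator gene TR_106259 had 39.9 and 46.8 CPM in ∆*ypr2*, against 0.815 and 1.04 CPM in the wildtype (5.54 ± 0.30). TR_121785, which encodes an RNA helicase, an enzyme that unwinds RNA, had 50.1 and 68.7 CPM in ∆*ypr2*, against 1.52 and 1.85 CPM in the wildtype (5.14 ± 0.25). The remaining 7 genes have no known function. Of these the highest levels in ∆*ypr2* were found for TR_103009, with 87.1 and 127 CPM in ∆*ypr2*, against 2.01 and 2.55 CPM in the wildtype (5.55 ± 0.29), and TR_112146 (4.98 ± 0.27), with 96.4 and 151 CPM in ∆*ypr2*, against 3.86 and 4.0 CPM in the wildtype. In all 15 genes ∆*ypr2* culture 2 was higher than ∆*ypr2* culture 1. Across the set the largest adjusted p was 3.8e-06. For the orphan gene TR_70972 the value moved to 5.74, against 4.92 with all libraries, when wildtype culture 2 was left out.

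The 15 largest falls, under the same minimum level, included *ypr2* itself, and the others lay between -8.31 and -4.37. TR_58509 had 0.109 and 0.0438 CPM in ∆*ypr2*, against 25.5 and 24.8 CPM in the wildtype (-8.31 ± 0.76), which is 2 and 1 counts in ∆*ypr2*, against 469 and 428 counts in the wildtype. It was the sole gene of this set beside *ypr2* that was called lower in light as well. TR_67597 had 2.34 and 3.68 CPM in ∆*ypr2*, against 306 and 200 CPM in the wildtype (-6.36 ± 0.30). TR_61227, annotated as a cobalamin synthesis protein, had 14.7 and 19.7 CPM in ∆*ypr2*, against 942 and 588 CPM in the wildtype (-5.46 ± 0.22). Both genes were low in the mutant and at moderate to high levels in the wildtype. TR_108663 had 16.8 and 6.92 CPM in ∆*ypr2*, against 525 and 486 CPM in the wildtype (-5.45 ± 0.26, and -6.19 without ∆*ypr2* culture 1). TR_123084 had 5.76 and 2.06 CPM in ∆*ypr2*, against 169 and 116 CPM in the wildtype (-5.24 ± 0.35, between -6.11 and -4.63 with single cultures left out). These 2 genes have no name in the sources used here.
Of the 15 genes 3 belong to a siderophore cluster, whose products make and import iron chelators: the transporter gene TR_71008 (-6.52 ± 0.38), the esterase gene TR_112590 (-6.26 ± 0.65) and the acetyltransferase gene TR_82628 (-5.10 ± 0.31). These were called higher in ∆*ypr2* in light. The others, between -5.43 and -4.37, were TR_54790, TR_73344, TR_109944, TR_60638, TR_103463 and TR_81082, none with a known function here. TR_58509 and TR_60638 moved to -8.96 and -5.14 without ∆*ypr2* culture 1.

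**Figure D3:**
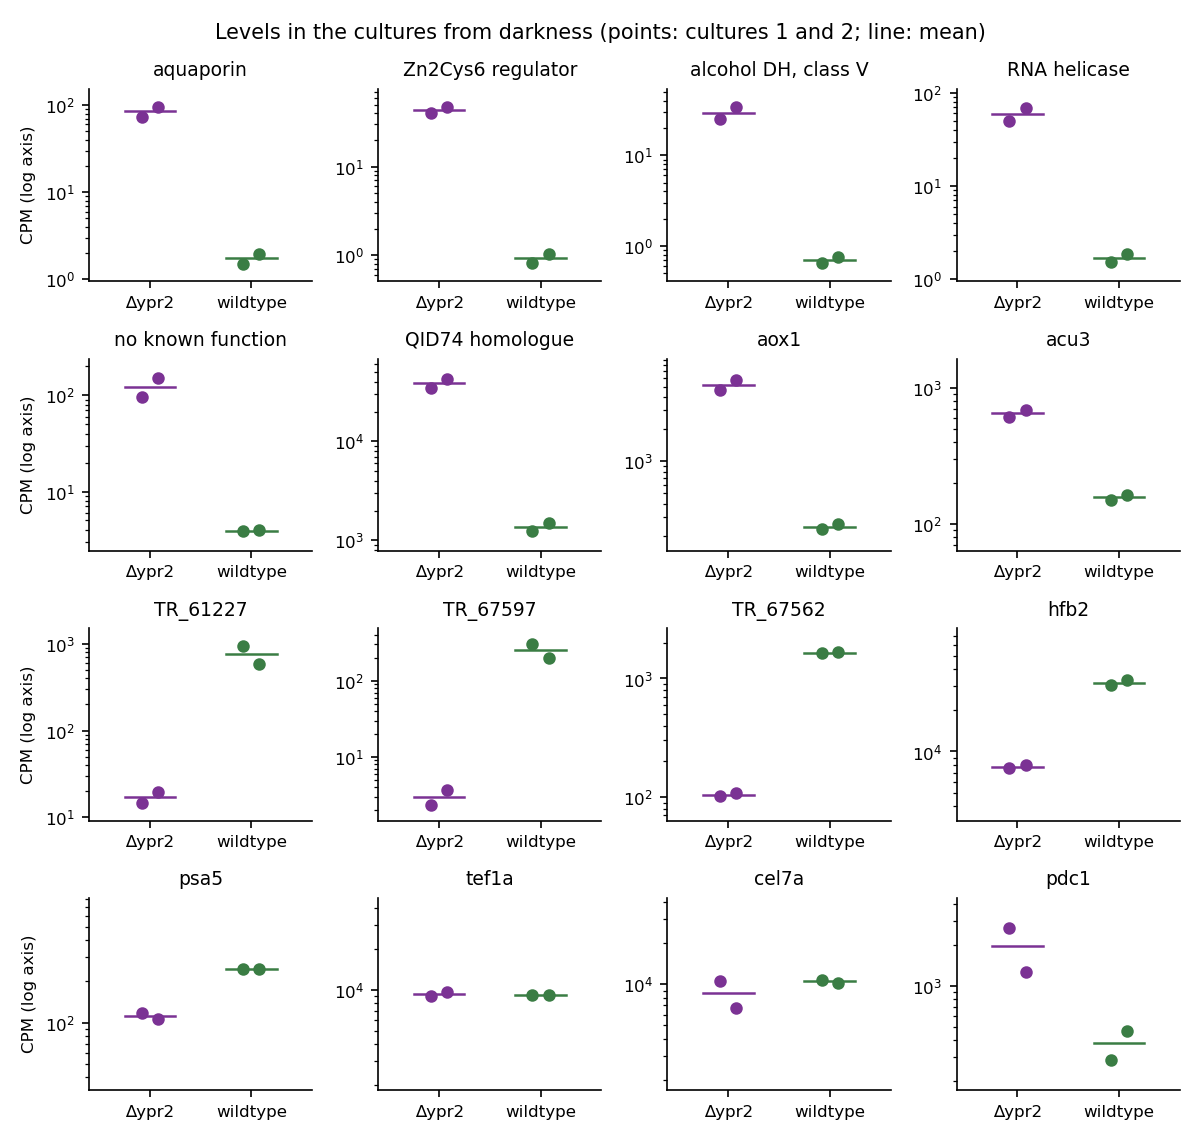
Levels of 16 genes in the cultures from darkness, in CPM on a log axis that differs between panels, with ∆*ypr2* on the left and the wildtype on the right. Points are cultures 1 and 2, lines their mean. *tef1a* lies between 9044 and 9599 CPM in all 4 cultures, and the ∆*ypr2* cultures differ for *cel7a* and *pdc1*.

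The counts of calls differed with the level of a gene. The 820 upregulated genes had a median level of 5.22 CPM in the wildtype, against 47.9 CPM for the 512 downregulated genes and 43.0 CPM for all genes tested. Part of this gap follows from the choice of genes, since those called higher in ∆*ypr2* are low in the wildtype by how they were called. A gene could also enter the test through the ∆*ypr2* libraries alone. By deciles of the mean level in darkness, upregulated genes made up 20.8 and 23.3% of the lowest and the second decile and 5.55% of the highest decile, while downregulated genes made up 7.79, 9.80 and 8.38% of the same deciles. In both deciles of the highest levels there were more downregulated genes (43 and 71) than upregulated ones (33 and 47). Since CPM are not divided by length, a decile also reflects transcript length. In the shortest and the longest of 5 equal length classes the upregulated share was 11.5 and 5.73%, and the downregulated share 7.45 and 4.14%, with median levels of 20.5 and 85.8 CPM.
A level under 1 CPM in the wildtype was found for 154 of the upregulated genes, of which 13 exceeded 10 CPM in ∆*ypr2*. Conversely 67 downregulated genes were under 1 CPM in ∆*ypr2*, of which 6 exceeded 10 CPM in the wildtype. For 3 upregulated genes the wildtype had no count at all, and for 1 downregulated gene ∆*ypr2* had none. These 4 were chosen after their values were seen. Of the unknown gene TR_103336 there were 46 and 94 counts in ∆*ypr2*, and it was at least 40.4-fold higher in ∆*ypr2*, set against a floor of 3 counts over both wildtype cultures. TR_112380, likewise unknown, had 43 and 62 counts in ∆*ypr2* and was at least 30.3-fold higher. TR_123639, for a glucanase of family GH64, had 9 and 7 counts in ∆*ypr2* and was at least 4.62-fold higher. TR_124299 had 0 and 0 counts in ∆*ypr2*, against 18 and 29 in the wildtype, and was at least 18.1-fold lower in ∆*ypr2*. The floors cover counting error only.

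**Figure D4:**
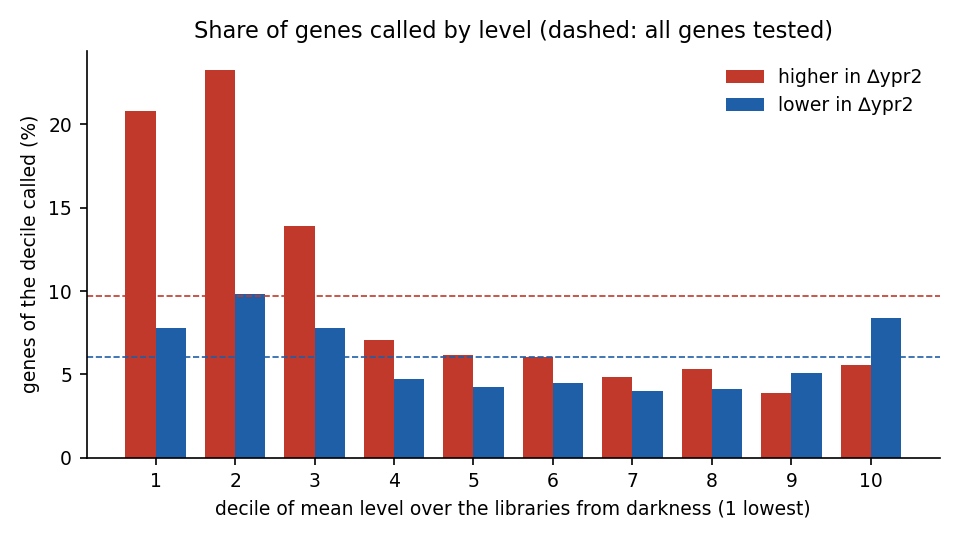
Bars give the percentage of genes called higher (red) or lower (blue) in ∆*ypr2* in each decile of the mean level over the libraries from darkness. Dashed lines are the shares over all genes tested, 9.68% and 6.05%. The lowest and second decile had the highest shares of upregulated genes, 20.8 and 23.3%.

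Functional classes came from the annotation that the study gives for genes it called. This covers 819 of the 820 upregulated genes but 216 of the 512 downregulated ones, so classes are described for the upregulated genes alone. These classes were made from genes chosen on the same samples, and their size in the whole genome was not known here, so that no share of a class can be given. A gene can stand in more than 1 class. No function was known for 251 genes annotated as unknown protein, and 63 were annotated as orphans. The largest class with a function were 45 zinc cluster regulators. Besides TR_106259 these included TR_122523 with 165 and 211 CPM in ∆*ypr2*, against 18.7 and 27.2 CPM in the wildtype (3.04 ± 0.17). Regulators of other families comprised 14 genes, among them the bZIP gene TR_109538 with 22.7 and 18.4 CPM in ∆*ypr2*, against 1.36 and 1.51 CPM in the wildtype (3.83 ± 0.24). Regulator genes also fell: the zinc cluster gene TR_121415 had 33.9 and 30.1 CPM in ∆*ypr2*, against 346 and 338 CPM in the wildtype (-3.42 ± 0.10), and the myb gene TR_4124 had 1.74 and 1.93 CPM in ∆*ypr2*, against 27.2 and 30.0 CPM in the wildtype (-3.95 ± 0.18). Transcripts of other regulators thus changed in both directions.

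Among transporter genes, 36 MFS permeases and sugar transporters were upregulated, for example TR_62380, whose annotation asks whether it is a galactose permease, with 212 and 237 CPM in ∆*ypr2*, against 8.80 and 13.8 CPM in the wildtype (4.32 ± 0.15). Transporters of amino acids, peptides and nitrogen compounds comprised 14 genes, among them the neutral amino acid transporter gene TR_123718 with 84.0 and 85.7 CPM in ∆*ypr2*, against 8.31 and 5.38 CPM in the wildtype (3.62 ± 0.20). Degradative enzymes were found with 35 glycoside hydrolases, 19 peptidases, 14 carbohydrate esterases and 12 lipases. The aspartyl protease gene TR_53961 had 26.0 and 27.6 CPM in ∆*ypr2*, against 0.978 and 1.51 CPM in the wildtype (4.44 ± 0.19). Of the lipases, TR_70491 had 24.2 and 23.4 CPM in ∆*ypr2*, against 0.815 and 1.56 CPM in the wildtype (4.33 ± 0.33).
Redox enzymes formed a further block with 19 short chain dehydrogenases, 13 enzymes of alcohol, aldehyde and pyruvate metabolism, 12 catalases, peroxidases and glutathione transferases, and 11 cytochromes P450. The P450 gene TR_64900 had 21.5 and 23.1 CPM in ∆*ypr2*, against 0.815 and 0.753 CPM in the wildtype (4.82 ± 0.24).
Heat shock proteins, chaperones that protect proteins under stress, accounted for 7 upregulated genes, among them the small heat shock protein gene TR_46285 with 441 and 711 CPM in ∆*ypr2*, against 13.0 and 31.2 CPM in the wildtype (4.71 ± 0.42, and 5.46 without wildtype culture 2). Genes linked to asexual development accounted for 6 upregulated genes. Those upregulated included the *grg-1*/*ccg-1* homologue TR_73516 with 1018 and 992 CPM in ∆*ypr2*, against 65.3 and 54.8 CPM in the wildtype (4.06 ± 0.08). A downregulated gene with such an annotation was *medA* (TR_123713), a transcriptional regulator of development, with 511 and 542 CPM in ∆*ypr2*, against 1067 and 1096 CPM in the wildtype (-1.04 ± 0.07). In bulk mycelium a different number of cells of a type and a different amount of transcript in each cell cannot be told apart.

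Genes with a symbol in RefSeq were not chosen by the study and give a less selected view, although they are mostly abundant genes (median 361 CPM, against 44.6 CPM for all genes tested). Of 228 such genes tested 14 were upregulated (6.14%) and 5 downregulated (2.19%), both below the shares of 9.68 and 6.05% among all genes. The 42 cytosolic ribosomal protein genes had a median log2 fold change of 0.03 and a range from -0.32 to 0.38, and none was called. With the adjusted p alone 4 were higher and 4 lower, where 26.9% of all genes tested were higher and 25.5% lower by that rule. Likewise *tef1a*, a translation elongation factor gene often used as a reference, had 9044 and 9599 CPM in ∆*ypr2*, against 9215 and 9179 CPM in the wildtype (0.02 ± 0.07, adjusted p = 0.82). The 4 translation factor genes with a symbol lay between -0.18 and 0.31, the highest being *tef2* (0.31 ± 0.09), and none was called. After scaling, these genes of translation thus differed by less than 2-fold between both strains.

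Histone and proteasome genes lay lower in ∆*ypr2* as groups, by less than 2-fold for all but 1 gene. By the adjusted p alone 25.5% of all genes tested were lower in ∆*ypr2*. The 5 histone genes had log2 fold changes between -0.87 and -0.57 (median -0.76), and all 5 passed the adjusted p alone. Of these *hh4.1* had 1588 and 1265 CPM in ∆*ypr2*, against 2528 and 2682 CPM in the wildtype (-0.87 ± 0.10), and it passed the 2-fold limit when ∆*ypr2* culture 1 was left out (-1.04). In all 5 the ∆*ypr2* culture 2 was the lower of both.
The proteasome degrades tagged proteins, and its 6 subunit genes with a symbol had a median of -0.86, all 6 past the adjusted p alone. One passed the 2-fold limit, *psa5*, with 118 and 106 CPM in ∆*ypr2*, against 247 and 245 CPM in the wildtype (-1.14 ± 0.06, adjusted p = 3.9e-07). The other 5 lay between -0.97 and -0.77, and with a test against a limit of 1.5-fold 4 of these 5 were called as well. TR_82512, annotated as Rpn4, which in *Saccharomyces cerevisiae* is an activator of proteasome genes, changed in the opposite direction, with 236 and 259 CPM in ∆*ypr2*, against 31.0 and 50.7 CPM in the wildtype (2.60 ± 0.28, adjusted p = 5.1e-05).

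Carbon metabolism changed in some branches. Both genes with a symbol in the glyoxylate cycle, the route that builds sugars from C2 compounds, were upregulated. *acu3*, for isocitrate lyase, had 608 and 685 CPM in ∆*ypr2*, against 151 and 163 CPM in the wildtype (2.04 ± 0.07), and *acu9*, for malate synthase, had 284 and 333 CPM in ∆*ypr2*, against 104 and 114 CPM in the wildtype (1.5 ± 0.08). None of 12 genes of glycolysis and its links to the citrate cycle was called (median 0.15, range -0.27 to 0.71). By the adjusted p alone 5 were higher and 1 lower, where 26.9% of all genes tested were higher and 25.5% lower. The most abundant of them, *gpd1*, had 4500 and 3592 CPM in ∆*ypr2*, against 2919 and 3216 CPM in the wildtype (0.40 ± 0.10).
Of 8 genes of galactose, pentose and polyol use 3 were upregulated and none downregulated, where 9.68% of all genes tested were upregulated and 6.05% downregulated. *lxr1*, for a mannitol dehydrogenase, had 422 and 418 CPM in ∆*ypr2*, against 48.1 and 59.9 CPM in the wildtype (2.96 ± 0.09). *lad1*, for L-arabinitol dehydrogenase, had 55.8 and 59.0 CPM in ∆*ypr2*, against 18.3 and 16.6 CPM in the wildtype (1.72 ± 0.08), and *gld1*, for a glycerol dehydrogenase, had 141 and 131 CPM in ∆*ypr2*, against 44.3 and 47.8 CPM in the wildtype (1.56 ± 0.08). The other 5, which act on galactose and xylose, were not called: *gal7* (0.48 ± 0.07), *gal10* (-0.21 ± 0.05), *xdh1* (-0.24 ± 0.06), *xyl1* (-0.32 ± 0.10) and *gal1* (-0.33 ± 0.06).

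Of 17 genes for enzymes that degrade cellulose and hemicellulose 1 was called, the membrane bound endoglucanase gene *cel5b* with 327 and 220 CPM in ∆*ypr2*, against 68.6 and 79.9 CPM in the wildtype (1.88 ± 0.16). Among all genes with a symbol 6.14% were upregulated and 2.19% downregulated, and among all genes tested 9.68 and 6.05%. The list had a median log2 fold change of -0.44, where that of all genes tested was 0.01. The major cellulases differed between the ∆*ypr2* cultures and not between the wildtype cultures. *cel7a*, for the main cellobiohydrolase, had 10514 and 6685 CPM in ∆*ypr2*, against 10767 and 10291 CPM in the wildtype (-0.29 ± 0.28, adjusted p = 0.38). The endoglucanase gene *cel5a* had 2774 and 1472 CPM in ∆*ypr2*, against 2552 and 2530 CPM in the wildtype (-0.26 ± 0.37, adjusted p = 0.56). Of the 17 genes 15 were lower in ∆*ypr2* culture 2 than in culture 1. For both genes ∆*ypr2* culture 1 was near the wildtype cultures and culture 2 below them, and a difference between strains was not resolved with n = 2.
Chitinases and hexosaminidases, which cut chitin of cell walls, had 4 upregulated and 1 downregulated of 15 genes (median 0.11), against shares of 9.68 and 6.05% among all genes tested. *chi18-13* had 25.2 and 28.3 CPM in ∆*ypr2*, against 6.08 and 5.21 CPM in the wildtype (2.24 ± 0.13), and *chi18-rel1* had 18.6 and 17.6 CPM in ∆*ypr2*, against 72.9 and 80.7 CPM in the wildtype (-2.09 ± 0.12).

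Signalling genes with a symbol were not called. This held for 10 genes of G protein and cAMP signalling (median 0.27), 14 kinases (median -0.15), 10 small GTPases (median -0.38) and 4 genes of light signalling (median -0.15). Among all genes with a symbol 6.14% were upregulated and 2.19% downregulated, and among all genes tested 9.68 and 6.05%. At such shares groups of this size hold few calls in any case. Other signalling genes, annotated by the study among those it called, were called here. They comprised 9 upregulated and 1 downregulated G protein coupled receptor genes, and 7 and 1 genes of calcium transport and signalling. Of protein kinase genes 2 were upregulated and 3 downregulated. That annotation covers downregulated genes incompletely. By the adjusted p alone, which 26.9% of all genes tested passed as higher and 25.5% as lower, 6 of the 10 G protein and cAMP genes were higher and 3 lower. For the kinases 1 was higher and 4 were lower, and for light signalling none was higher and 2 were lower. Of the 10 small GTPases none was higher and 7 were lower, among them *rho1*, a regulator of cell wall synthesis, with 898 and 947 CPM in ∆*ypr2*, against 1535 and 1527 CPM in the wildtype (-0.73 ± 0.06). Of the light signalling genes, the photoreceptor gene *blr1* had 163 and 175 CPM in ∆*ypr2*, against 170 and 166 CPM in the wildtype (0.01 ± 0.06), and the photolyase gene *phr1*, for a DNA repair enzyme, had 12.1 and 13.1 CPM in ∆*ypr2*, against 23.6 and 23.4 CPM in the wildtype (-0.90 ± 0.07). Of 12 genes of secretion and folding none was called (median -0.13), and by the adjusted p alone none was higher and 5 were lower, with *pdi1*, for protein disulfide isomerase, at -0.72 ± 0.06 and the chaperone gene *bip1* at 0.01 ± 0.09.

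**Figure D5:**
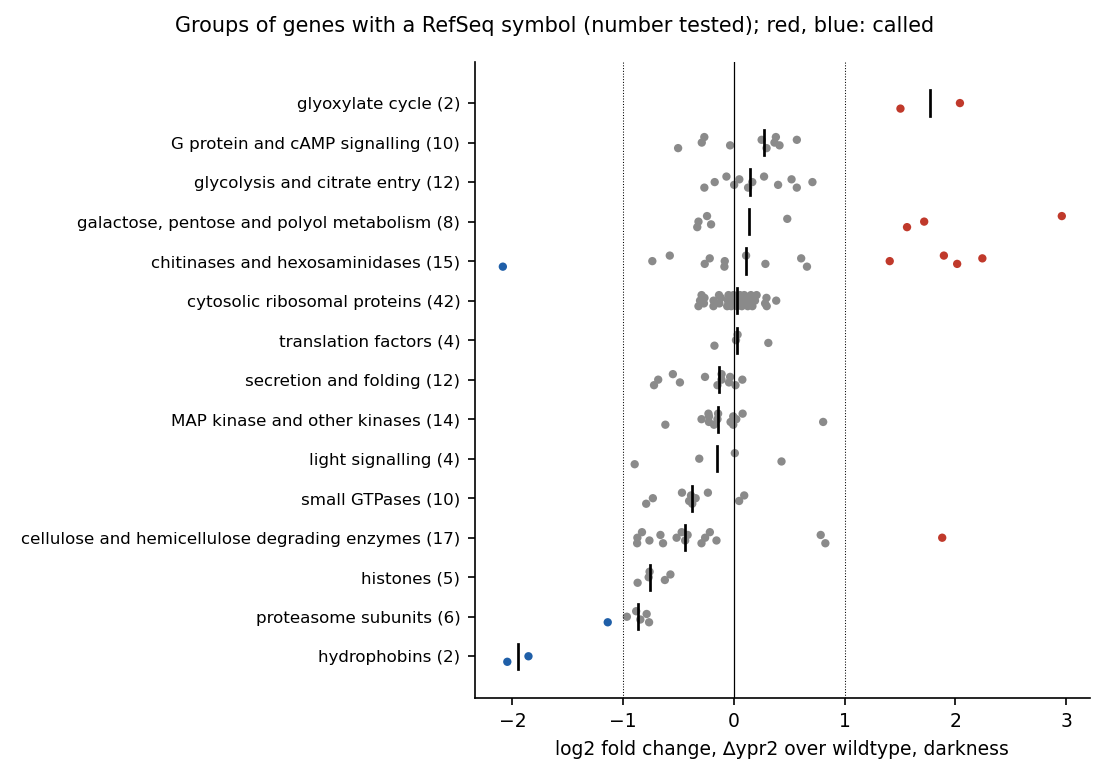
Each point is a gene with a RefSeq symbol, placed by its log2 fold change in darkness, ∆*ypr2* over wildtype, and grouped by function, with the number tested in parentheses. Black bars are medians, dotted lines the 2-fold limit, red points were called higher and blue points lower. Ribosomal proteins stay within -0.32 and 0.38, while both glyoxylate cycle genes and both hydrophobin genes were called.

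Some called genes were neighbours. How many runs would arise by chance at these shares of called genes was not determined. Of the 9115 genes placed on the RefSeq assembly, 40 runs of at least 3 adjacent upregulated genes held 138 of the 820 upregulated genes, and 19 runs of adjacent downregulated genes held 66 of the 509 downregulated genes that could be placed. A downregulated run of 4 genes on scaffold 1 included the deleted *ypr2* itself. The longest runs had 6 genes, and all genes named for runs here were chosen after their values were seen. One run on scaffold 5 held genes for a mannose-6-phosphate isomerase (TR_58701, 1.69), a short chain dehydrogenase (TR_3055, 3.65), an unknown protein (TR_58639, 3.37), a zinc cluster regulator (TR_105269, 1.78), a class C beta-lactamase (TR_58717, 3.72) and a flavin-containing monooxygenase (TR_76230, 4.01). Another on scaffold 25 joined a GH16 glucanase gene (TR_123726, 3.46) with an alcohol dehydrogenase of class V (TR_68590, 2.0), a short chain dehydrogenase (TR_81553, 1.31), a phosphohydrolase (TR_68427, 1.72) and 2 unknown genes, of which TR_68574 had 4.68. Thus both upregulated runs mixed oxidoreductases with genes of other kinds, and that on scaffold 5 also held a regulator gene.
The third run of 6 genes was downregulated and is the siderophore cluster on scaffold 46. Of 5 genes each, a run on scaffold 9 joined gluconate kinase (TR_62091, 1.99) and a phosphoketolase of the pentose phosphate route (TR_61553, 3.21), and a run on scaffold 15 joined tripeptidyl peptidase II (TR_109276, 2.44) and a zinc cluster gene annotated as RosA like (TR_109277, 2.45). A run of 4 on scaffold 10 held a flavoprotein monooxygenase (TR_4146, 2.98) and a catechol dioxygenase (TR_62165, 2.05), an enzyme that opens aromatic rings. The QID74 homologue lay in a run of 4 on scaffold 1 with an MFS permease gene (TR_2068, 4.83), a phospholipase C gene (TR_44366, 1.82) and an orphan gene (TR_103153, 3.19). Over 5 classes of distance from a scaffold end the upregulated share lay between 8.24 and 12.2%, and the downregulated share between 4.76 and 7.23%.

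The spread between cultures was larger in the mutant. The biological coefficient of variation was 0.098 in ∆*ypr2* and 0.058 in the wildtype, both from darkness. In light it was 0.051 in ∆*ypr2* and 0.039 in the wildtype. Since the fit shares its spread over all 4 groups, standard errors and adjusted p in darkness can be too small. Over the 7375 genes averaging 5 CPM or more, the median difference between the cultures of a strain was 0.10 on the log2 scale in ∆*ypr2* and 0.07 in the wildtype. There were 39 genes with at least a 2-fold difference between the ∆*ypr2* cultures, 38 of them lower in culture 2, and 21 between the wildtype cultures, 18 of them higher in culture 2. Of the 39 genes 16 were called for the deletion.
Among called genes the zinc-binding oxidoreductase gene TR_21876 varied most, with 58.4 and 18.0 CPM in ∆*ypr2*, against 1.25 and 4.28 CPM in the wildtype (3.79 ± 0.68, between 2.72 and 4.91 with single cultures left out). The orphan gene TR_123962 had 192 and 467 CPM in ∆*ypr2*, against 27.5 and 39.1 CPM in the wildtype (3.31 ± 0.39, and 2.53 without ∆*ypr2* culture 2), and was the sole one of the 10 most variable called genes with a higher level in ∆*ypr2* culture 2. TR_106353, an unknown gene, had 17.5 and 6.22 CPM in ∆*ypr2*, against 3.42 and 4.28 CPM in the wildtype (1.6 ± 0.43), and its call did not survive the omission of any single culture, from light or darkness, except ∆*ypr2* culture 2, with 0.69 left without ∆*ypr2* culture 1. TR_106353 shows that a call at this size of replication can rest on a single culture.
TR_105840 (-1.79 ± 0.35), TR_109378 (-2.60 ± 0.38), TR_103866 (1.78 ± 0.37) and the flavin monooxygenase gene TR_22110 (2.16 ± 0.52) belong to the same group of variable genes. With single cultures left out TR_105840 lay between -2.76 and -1.17, TR_109378 between -3.56 and -1.95, TR_103866 between 1.00 and 2.31 and TR_22110 between 1.33 and 2.90. The calls of TR_103866, TR_105840 and TR_22110 were lost without wildtype culture 1, and that of TR_103866 also without wildtype culture 2.

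The effect of the deletion in darkness differed from that in light for most of these genes. In light 32 genes were upregulated and 12 downregulated in ∆*ypr2*, which is 0.52% of all genes tested. Upregulated genes of darkness had a median log2 fold change of -0.01 in light, and downregulated genes of darkness one of 0.16. The difference between both effects was itself called for 606 of the 820 upregulated genes (73.9%) and for 388 of the 512 downregulated genes (75.8%), where 14.3% of all genes tested were called for the difference. Much of this gap follows from the choice of genes, since the difference contains the effect in darkness by which they were called. With single cultures left out between 881 and 1080 genes called in darkness had a called difference, against 994 with all libraries. For the other 214 and 124 genes a difference between darkness and light was not resolved. Of the genes called in both conditions 3 were upregulated in both and 3 downregulated in both. Another 14 were downregulated in darkness and upregulated in light, and 5 were upregulated in darkness and downregulated in light.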

How the data were processed

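RNA-seq was done by the study with single reads from total RNA of 2 biological replicates per strain and light condition. The authors aligned reads with Bowtie2, handled alignments with SAMtools and bedtools and estimated transcript values with RSEM. No version or genome build was stated there. The deposited values are expected counts, although the table is named for FPKM. Between 71.8 and 80.6% of the values of a library were whole numbers. They were rounded here and tested with edgeR 4.0.16 in R 4.3.3 (TMM scaling, quasi-likelihood F test, two-sided, Benjamini-Hochberg adjustment), with a mean for each of 4 groups over all 8 libraries, which leaves 4 residual degrees of freedom. Genes entered the test if 2 or more libraries reached 0.5 CPM. Alternatives used limma 3.58.1 and DESeq2 1.42.0.

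RefSeq of assembly v2.0 matched 9115 of 9143 genes and was used for symbols and for which genes neighbour each other. The sources used here gave neither product names nor sequences, so lists planned on product names or protein signatures, and motif searches in promoters, were replaced by lists on RefSeq symbols or left out. The members, lists and tests were chosen with earlier results of these data known. Some regulator genes are not reported here. Genes were eligible to be named if they were *ypr2*, the 15 largest rises and 15 largest falls among called genes averaging 5 CPM or more, the 10 largest gains and 10 largest losses in CPM, the 10 called genes with the largest difference between the ∆*ypr2* cultures, or, in a list, the 2 largest called rises or falls, any member of a list of up to 8 genes, or the most abundant members without a call. From the lists only some eligible genes are named. Genes of runs and genes at 0 counts lie outside this rule.

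Replicates differed by more than sampling noise (chi-square per degree of freedom 36.0 in ∆*ypr2* and 12.5 in the wildtype, darkness). With counts simulated for ∆*ypr2* against the wildtype in darkness over 8469 genes, the test recovered 50% of genes changed 2-fold and 100% of those changed 3-, 4- or 8-fold, with 0 calls among 8269 unchanged genes. A recovery near 50% at 2-fold follows from the 2-fold limit of a call. Genes with low counts were not among those changed, and all genes of a group were given the same spread. The simulation therefore does not cover genes at low counts or genes with a larger spread between cultures.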

Additional observations from a re-analysis of the deposited data

Results flagged for a closer look

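The effect of the deletion differed between darkness and light by the interaction term of the edgeR fit for 994 of the 1332 genes called in darkness. These genes were chosen by their effect in darkness, which is itself a part of the difference. Among the 15 largest rises this difference, given as the log2 fold change in darkness minus that in light, was called for 11 genes. It was 5.47 for the RNA helicase gene TR_121785, 5.46 for TR_103009, 5.28 for the oxidoreductase gene TR_59322, 4.89 for the zinc cluster gene TR_106259, 4.70 for TR_60370, 4.47 for the aquaporin gene TR_82321, 4.34 for the alcohol dehydrogenase gene TR_3447, 4.05 for TR_105287, 3.92 for the sulfite oxidase gene TR_76601, and 3.86 each for TR_60810 and TR_112146. Among the 15 largest falls it was called for 10 genes. Among these 10 it was largest for the genes of the siderophore cluster, with -10.17 ± 0.69 for TR_71008, -8.16 for TR_112590 and -7.29 for TR_82628. The value of TR_71008 rests in part on few counts in light, 35 and 53 in ∆*ypr2*, against 2 and 4 in the wildtype. The difference was -6.96 ± 1.40 for TR_67597, -6.44 ± 1.54 for TR_108663, -5.56 for TR_61227, -5.08 for TR_123084, -4.93 for TR_81082, -4.68 for TR_103463 and -4.54 for TR_54790. In light TR_67597 had 5 and 7 counts in ∆*ypr2*, against 4 and 3 in the wildtype. TR_108663 had 7 and 11 counts there, against 4 and 4. TR_103463 and TR_54790 also had few counts in light. For such genes an effect of the deletion in light could hardly be measured. The catalase gene *cat-3* (TR_58472) was at 0 counts in the wildtype in light, so that its effect there has no bound from the fit, and its difference was not called.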

How the results depend on the processing

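The count of upregulated genes lay between 657 and 894 and that of downregulated genes between 437 and 589 over all alternatives run, against 820 and 512, and in none was a gene called in the opposite direction. The lowest counts came from a filter of 5 CPM, which tests fewer genes, and the highest count of upregulated genes from omitting the scaling factor, which moved the median log2 fold change of all genes to 0.07. DESeq2 called 753 and 491 genes and limma-voom 795 and 519, of which 749 and 485, and 790 and 509, were also called by the quasi-likelihood test. A fit of only the 4 libraries from darkness called 751 and 506 genes. With single cultures left out the counts were 749 to 813 and 454 to 589. Same-numbered cultures do not pair by design. With the replicate number as a block the counts were 810 and 518 in all libraries and 740 and 520 in those from darkness. Since deviations of same-numbered cultures from darkness ran against each other over genes (correlation -0.12), crossed numbers were added after seeing the data and gave 823 and 515. Of 125 named genes 113 kept their call in all 24 planned settings. Leaving out 1 culture moved the fold of 14 of 92 called genes by over 1.5 times, and these are named above. At 16.9 to 22.9 Mio counts, genes of a few CPM have wide errors, and 2 cultures per group leave the spread of a single gene poorly known.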
